A study of Mus musculus with 60 samples.

Results

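The hippocampal response to ketamine 1 h after a single injection was read from 3 arrays of ketamine-treated mice set against 3 arrays of saline-treated mice killed at the same time, which are 6 of the 60 Illumina MouseWG-6 v2 bead arrays of the series. The arrays were chosen by their labels alone, and all 45281 probes were used. The ketamine group held adult male C57BL/6J mice, 8 to 10 weeks old, injected i.p. with ketamine at 20 mg/kg. The saline group held mice of the same strain, sex and age injected i.p. with saline, and another group of 3 arrays, naive mice of the same time point, had no injection. The RNA of 2 mice was combined on every array, so each replicate is its own pool and no value belongs to a single animal. No gene was altered in these animals, and the whole hippocampus was taken, so a lower signal can mean fewer cells of a type or less RNA per cell, which cannot be told apart.

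Ketamine is an open-channel blocker of the NMDA receptor, the glutamate-gated calcium channel that couples synaptic activity to transcription. A subanesthetic dose is known to release excitatory neurons from inhibition, to raise the secretion of corticosterone and to act as a rapid antidepressant. Immediate early genes such as *Fos* and *Egr2* follow neuronal activity within the first hour, and the ligand-bound glucocorticoid receptor activates genes such as *Sgk1*, *Tsc22d3* and *Fkbp5* by binding to their regulatory DNA.

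The median probe had an intensity of 230, 138 and 162 on the ketamine arrays and of 168, 172 and 306 on the saline arrays. None of the 6 was among the 7 arrays of the series with a high background. The 6 arrays lay on 5 slides of the 10. Only slide 1 held an array of both groups (ketamine replicate 1 and saline replicate 3). Among these 6 arrays only that pair compares the groups within a slide. The slides also held arrays of other groups, so slide differences can be estimated from all 60 arrays together. Of 14 markers of hippocampal neurons with a probe, 12 had a signal above the median of all probes, as did 11961 of all 19057 genes. So did 9 of 9 neocortex markers and 8 of 9 striatum markers, so this count does not identify the tissue. Transcripts of the choroid plexus, which lies against the hippocampus, differed greatly between the arrays of one group and are described apart at the end.

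Only 1 gene, *Txnip*, passed the adjusted test (Benjamini-Hochberg over all 45281 probes, limma). With 3 arrays in each group, this does not show that the other genes were unchanged. *Txnip* encodes thioredoxin-interacting protein, an inhibitor of thioredoxin and of glucose uptake. Both of its probes were higher 1 h after ketamine at an adjusted p under 0.05, a call that depended on the arrays and processing used. They were the 2 probes called, or 0.00442% of all probes, and no probe was called lower. At a nominal p under 0.05, with no adjustment, 590 probes were higher and 697 lower.

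On the log2 scale, the brighter *Txnip* probe read 10.87, 11.20 and 11.36 on the ketamine arrays, against 10.02, 9.70 and 10.49 on the saline arrays. All ketamine arrays lay above all saline arrays, and the closest pair, ketamine replicate 1 and saline replicate 3, lay on the same slide. The difference was 1.08 ± 0.19 (SE), a 2.11-fold higher signal (adjusted p = 0.0260). The dimmer probe read 9.52, 9.95 and 10.18 with ketamine, against 8.80, 8.79 and 8.96 with saline. The groups were again separate, with a difference of 1.03 ± 0.17 and a fold of 2.05 (adjusted p = 0.00911). Within slide 1 the ketamine array exceeded the saline array by 0.38 and 0.56 with the brighter and the dimmer probe. An exact permutation test of 3 against 3 arrays gave p = 0.1 for the brighter probe (two-sided), the smallest value that this number of arrays allows. Leaving out ketamine replicate 2 or 3, or saline replicate 1 or 2, ended both calls, while the difference of the brighter probe stayed between 0.89 and 1.28 over the 21 alternative settings.

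The next probes in order of p did not pass the adjusted test. *Ppp1r3g*, the glycogen-targeting subunit of protein phosphatase 1, read 9.84, 10.15 and 10.27 with ketamine, against 9.48, 9.08 and 9.36 with saline. Its groups did not overlap, with a difference of 0.78 ± 0.15 (adjusted p = 0.0855), and a second, dimmer probe differed by 0.20. *Nfkbia*, the inhibitor that holds NF-κB in the cytoplasm, read 9.97, 9.94 and 9.84 with ketamine, against 9.42, 9.01 and 9.34 with saline. The ketamine arrays were within 0.13 of each other (the largest less the smallest of the unrounded values) and all above saline, with a difference of 0.66 ± 0.14 (adjusted p = 0.339).

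*Gadd45g*, a growth arrest and DNA demethylation factor induced by activity, read 12.10, 11.96 and 12.31 with ketamine, against 11.62, 11.43 and 11.53 with saline. The groups were separate (difference 0.60 ± 0.14, adjusted p = 0.910). *Sgk1*, the serum- and glucocorticoid-induced kinase, read 13.47, 13.24 and 13.52 with ketamine, against 12.55, 12.20 and 12.90 with saline. Its difference of 0.86 ± 0.22 came with wider scatter of the saline arrays, and its adjusted p was 1.00. *Ddit4*, an inhibitor of mTOR complex 1 that stress and glucocorticoids induce, read 11.22, 11.55 and 11.51 with ketamine, against 11.10, 10.34 and 10.67 with saline (difference 0.72 ± 0.19, adjusted p = 1.00). Here ketamine replicate 1 and saline replicate 1 were only 0.11 apart.

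**Figure D1:**
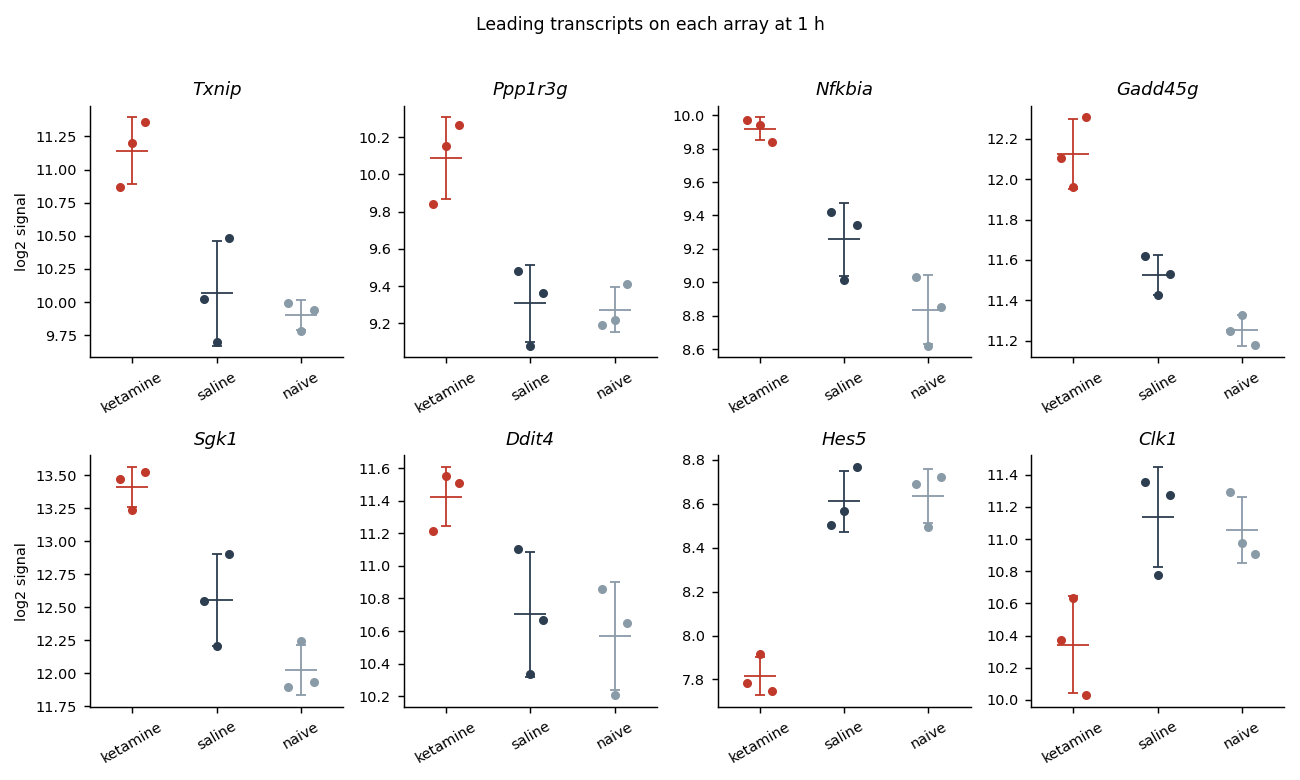
Log2 signal of 8 leading transcripts on the 3 arrays of ketamine-treated, saline-treated and naive mice at 1 h (points are arrays, horizontal bars means, error bars SD). *Txnip* is the only one of the 8 past the adjusted test against saline; all 3 ketamine arrays lie above saline for *Txnip* and below saline for *Hes5*.

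*Slc2a1* and *Angptl4* were among the 15 higher probes with the smallest p, taken from probes brighter than the median. *Slc2a1*, the glucose transporter of the blood-brain barrier, read 11.94, 11.61 and 12.06 with ketamine, against 11.23, 10.96 and 11.50 with saline (difference 0.64 ± 0.17). *Angptl4*, a secreted inhibitor of lipoprotein lipase, read 8.42, 8.36 and 8.49 with ketamine, against 7.88, 7.86 and 7.75 with saline (difference 0.59 ± 0.18). Both had an adjusted p of 1.00 although their groups did not overlap. With a second *Angptl4* probe the groups overlapped. Non-overlap alone is common here: of 19057 genes, 5.77% had all ketamine arrays above all saline arrays and 3.6% had all below.

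The other higher genes by that rule were *Fam120b*, a coactivator of PPARγ (0.62 ± 0.15, adjusted p = 0.910), *Bop1*, a factor of ribosome assembly (0.58 ± 0.16), *C2cd4a* (0.57 ± 0.17), the stress kinase *Map3k6* (0.66 ± 0.20), the calpain *Capn5* (0.85 ± 0.26), the casein kinase subunit *Csnk2a2* (0.36 ± 0.11) and the Golgi exchange factor *Gbf1* (0.46 ± 0.15). The difference of *Capn5* rested on 1 array, saline replicate 2, which read 9.14 while the other 5 read between 11.19 and 11.42. Other probes of some of these genes differed less. The second *Bop1* probe differed by 0.00, those of *Fam120b* by 0.15 to 0.27 and that of *Csnk2a2* by 0.14, the dim probes of *Gbf1* by -0.08 and -0.29 and the other probes of *C2cd4a* by -0.08 and 0.40. For *Map3k6* a brighter probe differed by 0.16 only, and for *Gadd45g* and *Nfkbia* a second probe differed by 0.50 and 0.47.

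None of the lower probes passed the adjusted test. *Hes5*, a repressor that Notch signaling induces in astrocytes and neural progenitors, read 7.78, 7.92 and 7.75 with ketamine, against 8.50, 8.57 and 8.77 with saline. Its 3 ketamine arrays were all below saline by a difference of -0.80 ± 0.22, the second probe of the gene differed by -0.59, and the adjusted p was 1.00. In the fit without the arrays of high background the brighter *Hes5* probe passed (difference -0.85, adjusted p = 0.0251).

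*Clk1* and *Clk4*, kinases of splicing factors, came next. The brightest *Clk1* probe read 10.37, 10.63 and 10.03 with ketamine, against 11.35, 10.78 and 11.28 with saline (difference -0.79 ± 0.25), and 1 of 4 *Clk4* probes read 9.42, 9.72 and 9.13, against 10.36, 10.08 and 10.34 (difference -0.84 ± 0.24). These groups were separate, but those of the second *Clk1* probe overlapped. The brightest *Clk4* probe differed by -0.09 and overlapped too. The same split between probes held for *Map1lc3a* and *Tle5*, where a dimmer probe differed by -0.68 and -0.58 with separate groups and the brightest by -0.29 and -0.17 with overlap. For *Septin5*, *Atp9a* and *Mlf2* a dimmer probe differed by -0.73, -0.70 and -0.88 and the brightest by -0.32, -0.04 and -0.02, and the groups overlapped with both. For *Ccdc47* 2 of 3 probes were lower with no overlap, the brightest by -0.54 ± 0.17, and the only probe of *Gfra4* was lower by -0.44 ± 0.14.

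At the threshold used in the study (nominal p under 0.0005 and an absolute log2 difference above 0.3), 8 probes were higher, or 0.0177% of all probes, and 1 was lower, or 0.00221%. The study set this p on the drug factor of an analysis of variance with drug and time. Here it was set on the limma comparison at 1 h alone, so the counts are not comparable. The higher ones were the 2 probes of *Txnip* and 1 each of *Ppp1r3g*, *Nfkbia*, *Gadd45g*, *Fam120b*, *Sgk1* and *Ddit4*. The lower one was a probe of the opsin *Opn5*, whose signal was below the median of all probes on average and which differed by -0.70 ± 0.18.

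The sequences just upstream of 3 of these genes are shown because *Txnip*, *Sgk1* and *Nfkbia* are known targets of factors with well-described binding motifs. They are promoter windows of RefSeq (build GRCm38.p6), 250 bases before to 50 bases after an annotated start, with the motif matches in capitals. The *Txnip* window lies at chr3:96557707-96558006 on the plus strand, one *Sgk1* window at chr10:21993640-21993939 on the plus strand and the *Nfkbia* window at chr12:55492598-55492897 on the minus strand.
Txnip: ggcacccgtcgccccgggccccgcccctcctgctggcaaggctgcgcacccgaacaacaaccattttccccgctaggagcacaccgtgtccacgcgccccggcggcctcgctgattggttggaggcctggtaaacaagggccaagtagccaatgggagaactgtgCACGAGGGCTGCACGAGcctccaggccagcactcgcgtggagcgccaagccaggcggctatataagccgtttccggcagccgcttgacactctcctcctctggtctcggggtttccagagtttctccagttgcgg
Sgk1: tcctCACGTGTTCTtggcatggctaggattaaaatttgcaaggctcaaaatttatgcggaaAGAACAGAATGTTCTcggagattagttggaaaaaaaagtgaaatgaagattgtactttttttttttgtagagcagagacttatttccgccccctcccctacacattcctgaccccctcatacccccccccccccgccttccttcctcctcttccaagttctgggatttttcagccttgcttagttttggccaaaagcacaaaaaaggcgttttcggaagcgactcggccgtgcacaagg
Nfkbia: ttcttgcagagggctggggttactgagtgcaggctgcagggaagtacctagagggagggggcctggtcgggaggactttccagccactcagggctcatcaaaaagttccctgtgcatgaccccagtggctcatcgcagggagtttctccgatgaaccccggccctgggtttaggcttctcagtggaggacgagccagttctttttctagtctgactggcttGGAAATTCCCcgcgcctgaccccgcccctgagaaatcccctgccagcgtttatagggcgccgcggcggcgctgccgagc
In the *Txnip* window the capitals mark a tandem of E-box-like repeats (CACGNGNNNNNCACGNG), the pattern of the carbohydrate response element through which glucose is known to drive this gene, beginning 85 bases before the start. Neither repeat is the palindromic E-box CACGTG, of which this window held 0. The tandem was searched after the window had been read, and 0.0487% of 32851 promoter windows held it. In the *Sgk1* window, 1 of 6 annotated for the gene, they mark a full glucocorticoid response element (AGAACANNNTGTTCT) beginning 189 bases before that start, and an E-box (CACGTG) that overlaps a half-site (TGTTCT) at 246 and 242 bases. No other *Sgk1* window held the full element. Half-sites alone lay 195 and 13 bases before the start in other *Sgk1* windows, and the rest held none of the motifs. Among all promoter windows the full element was in 3, or 0.00913%, the half-site in 19.0% and the E-box in 7.15%. In the *Nfkbia* window they mark a match to the NF-κB consensus 29 bases before the start, which 4.51% of windows held. Both strands were searched, and the 2 half-sites inside the full element are counted in it. The cyclic AMP response element (TGACGTCA, in 1.79% of windows) was in none of the windows of these 3 genes, of *Ppp1r3g* or of *Gadd45g*, and the *Ppp1r3g* window held none of the 6 motifs. These matches describe the letters only.

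Targets of the glucocorticoid receptor had higher means as a group. Of 42 such genes with a probe, 39 had a higher mean with ketamine than with saline, with a median log2 difference of 0.23, against 0.02 over all 19057 genes. At a nominal p under 0.05, 12 were higher and none lower, where 1.5% of all genes were higher and 1.47% lower. All ketamine arrays lay above all saline arrays for 13 and below for 1, the receptor gene *Nr3c1*. Over all genes these shares were 5.77% and 3.6%. Only *Txnip* passed the adjusted test.

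The mean of the 42 targets, relative to the mean of the saline arrays, was 0.26, 0.24 and 0.34 on the ketamine arrays, against 0.02, -0.09 and 0.07 on the saline arrays. It was -0.13, -0.08 and -0.11 on the arrays of naive mice. The ketamine arrays stood above both other groups without overlap. The count of nominally higher targets lay between 9 and 14 when any 1 of the 6 arrays was left out. Many of the targets, *Sgk1*, *Nfkbia*, *Ddit4* and *Txnip* among them, were also named or listed by the study on these same samples. A list partly chosen on these samples is not independent evidence of its direction.

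Besides the genes already described, the targets with a nominal difference were moderate in size. *Dusp1*, the phosphatase that switches off MAP kinases, read 11.05, 10.82 and 11.37 with ketamine, against 10.81, 10.35 and 10.80 with saline (difference 0.43 ± 0.18). *Tsc22d3*, which encodes the glucocorticoid-induced leucine zipper, differed by 0.40 ± 0.16, the cell cycle inhibitor *Cdkn1a* by 0.43 ± 0.21, the lipid transporter *Mfsd2a* by 0.37 ± 0.15 and the kinase *Pim3* by 0.38 ± 0.13. All had an adjusted p of 1.00. *Fkbp5*, a cochaperone of the receptor, and the clock gene *Per1* are classical targets that differed little at 1 h. *Fkbp5* read 9.33, 9.33 and 9.23 with ketamine, against 9.16, 9.08 and 9.31 with saline (0.11 ± 0.17), and *Per1* differed by 0.15 ± 0.15.

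**Figure D2:**
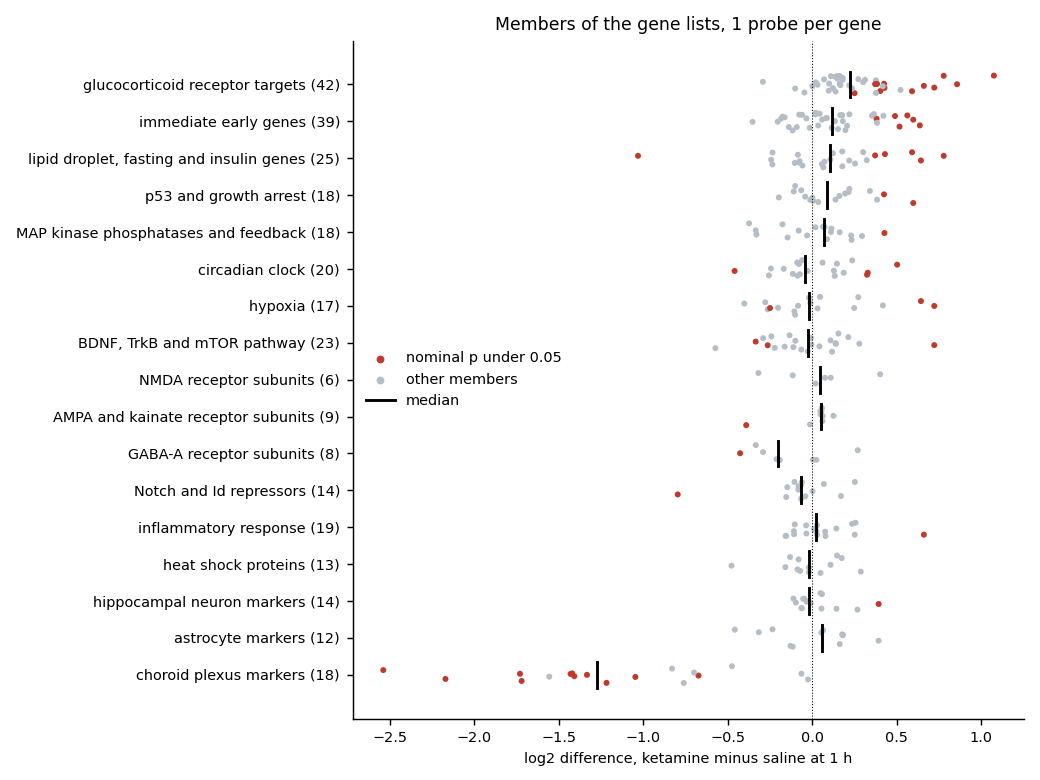
Log2 difference between ketamine and saline at 1 h for the members of 17 gene lists, 1 probe per gene (points are genes, red at a nominal p under 0.05, black bars list medians, number of genes in brackets). The median is 0.23 for the glucocorticoid receptor targets and 0.12 for the immediate early genes, near 0 for most other lists, and -1.27 for the choroid plexus markers.

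Of 39 immediate early genes, 27 had a positive difference and the median was 0.12. At a nominal p under 0.05, 6 were higher and none lower, while 8 had all ketamine arrays above saline and 1 (*Bdnf*) had all below. Over all genes 1.5% were nominally higher and 1.47% lower, and 5.77% had all ketamine arrays above saline and 3.6% all below. The 6 were *Gadd45g*, *Egr4*, *Klf2*, *Egr2*, *Klf4* and *Klf6* (adjusted p of 0.910 for *Gadd45g* and 1.00 for the other 5). *Egr2*, a zinc finger factor of the Egr family, read 8.79, 8.60 and 8.98 with ketamine, against 8.45, 8.34 and 7.89 with saline (0.56 ± 0.23). *Egr4*, of the same family, read 11.43, 11.13 and 11.41, against 11.05, 10.47 and 10.97 (0.49 ± 0.17). The Krüppel-like factor *Klf2* read 8.92, 9.48 and 9.68, against 8.83, 8.58 and 8.77 (0.64 ± 0.24). For all 3 the groups were separate, by 0.15 in *Egr2*, 0.10 in *Klf2* and 0.08 in *Egr4*.

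The best known activity markers, *Fos*, *Arc*, *Egr1* and *Npas4*, are given although they fall outside the rule for named genes and were chosen after their values were seen. *Fos* averaged 9.75 ± 0.44 with ketamine and 9.69 ± 0.12 with saline (SD, n = 3 arrays each), and *Arc* averaged 10.67 ± 0.07 and 10.76 ± 0.53 (SD, n = 3 arrays each). Their differences were 0.06 ± 0.25 and -0.09 ± 0.22. *Egr1* averaged 13.73 ± 0.08 with ketamine and 13.61 ± 0.06 with saline (difference 0.12 ± 0.17), and *Npas4*, a neuronal activity factor, averaged 8.17 ± 0.13 and 7.75 ± 0.25 (difference 0.42 ± 0.22). The groups overlapped for *Fos*, *Arc* and *Egr1*, all ketamine arrays lay above saline for *Npas4*, and each adjusted p was 1.00. The count of nominally higher immediate early genes dropped to 2 of 39 without ketamine replicate 3 and was 4 to 6 without any other single array. Some members, such as *Fos*, *Klf2* and *Gadd45g*, were named or listed by the study on these samples, so the list is not independent of them.

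Genes of the pathway thought to carry the antidepressant action showed no common direction. Of 23 genes of BDNF, its receptor TrkB and mTOR, 9 had a positive difference and the median was -0.03. The 1 nominally higher gene was *Ddit4*, and the 2 nominally lower were *Vgf*, a neuropeptide precursor that BDNF induces (-0.33 ± 0.16), and *Rheb*, the GTPase that activates mTOR (-0.26 ± 0.13). Among all genes 1.5% were nominally higher and 1.47% lower. *Bdnf* itself had 6 probes, whose differences lay between -0.21 and 0.24. Its brightest probe read 10.52, 10.24 and 10.52 with ketamine, against 10.59, 10.63 and 10.55 with saline. That is a separation of 0.03 between groups and a difference of -0.16 ± 0.15. *Ntrk2*, which encodes TrkB, differed by -0.29 ± 0.15, *Mtor* by -0.13 ± 0.13 and *Eef2k*, a kinase that slows translation elongation, by 0.14 ± 0.14. All these adjusted p-values were 1.00.

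Those transcripts of the drug's target that could be read also differed little. Of 6 NMDA receptor subunit genes with a probe, none reached a nominal p under 0.05, and the median was 0.05. Only 4 of the 6 had a signal above the median of all probes. The subunit gene *Grin1* had no probe under its symbol and was not read. *Grin2a* read 9.21, 8.61 and 8.91 with ketamine, against 8.59, 8.41 and 8.52 with saline, a separation of 0.02 with a difference of 0.40 ± 0.23. With its second probe the groups overlapped. *Grin2b* differed by 0.11 ± 0.15 and *Grin2c* by -0.32 ± 0.23. Of 9 AMPA and kainate receptor subunits 1 was nominally lower (median 0.05), and of 8 GABA-A receptor subunits 1, *Gabrg3* (-0.43 ± 0.20), was nominally lower (median -0.20). Among all genes 1.47% were nominally lower.

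The other lists had 0 to 5 nominally higher members and 0 or 1 nominally lower, where 1.5% and 1.47% of all genes were. Of 25 genes of lipid, fasting and insulin responses, 5 were nominally higher (*Ppp1r3g*, *Slc2a1*, *Angptl4*, *Slc27a3* and *Mfsd2a*) and 1 lower, the insulin-like growth factor binding protein *Igfbp2*. *Igfbp2* read 9.03, 8.41 and 7.95 with ketamine, against 10.39, 9.07 and 9.02 with saline, a difference of -1.03 ± 0.39 with overlapping groups. Of 20 clock genes, 3 were nominally higher, the repressor *Ciart* (0.50 ± 0.21), *Dbp*, an output gene of the clock (0.33 ± 0.15), and *Bhlhe40* (0.33 ± 0.16), and 1 lower, with a median of -0.04. Ketamine and saline mice were killed at the same interval after injection, but the hour of day was not examined here. Of 18 genes of p53 and growth arrest 2 were nominally higher, of 18 MAP kinase phosphatases and feedback regulators 1, of 17 hypoxia genes 2 with 1 lower (median -0.02), of 19 inflammatory genes 1 (*Nfkbia*), of 19 neuropeptides and interneuron markers 1, of 14 Notch and Id repressors 0 with 1 lower (*Hes5*), and of 13 heat shock proteins 0 (median -0.02).

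The genes that the study listed for ketamine were read in the same way, as a description, since they were chosen on these samples. Of 21 with a probe, 17 had a positive difference, 11 were nominally higher and 1 nominally lower, with a median of 0.40. Among all genes the nominal shares were 1.5% higher and 1.47% lower. The lower one was *Rsrc2* (-0.37 ± 0.17). Those without a nominal difference included the lipid droplet protein *Plin4* (0.12 ± 0.22), the sulfotransferase *Sult1a1* (0.27 ± 0.16), the lipase *Pnpla2* (0.30 ± 0.15), the hypoxia-inducible factor subunit *Hif3a* (0.42 ± 0.24) and *Slc38a10* (0.22 ± 0.19). On the negative side were *Mat2b* (-0.27 ± 0.14), *Grb14* (-0.07 ± 0.19) and *P4ha1* (-0.01 ± 0.26). *Fgf11*, a growth factor homolog that the study also named, differed by -0.25 ± 0.17. Groups overlapped for *Plin4*, *Sult1a1*, *Pnpla2*, *Grb14*, *P4ha1* and *Fgf11*, and were separate for *Rsrc2*, *Hif3a*, *Slc38a10* and *Mat2b*. Other probes of *Hif3a* differed by -0.12 and -0.02, those of *Slc38a10* by -0.09 to 0.08, those of *Mat2b* by -0.56 to -0.03, those of *Grb14* by -0.20 and 0.10 and that of *P4ha1* by -0.33.

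Markers of other cell types and tissues, the choroid plexus apart, were near the median of all genes. The medians of the ependyma, endothelium, astrocyte, microglia, oligodendrocyte, hippocampal neuron, striatum, thalamus, neocortex, blood and meninges lists lay between -0.06 and 0.06. Of those 11 lists, 3 had 1 nominal member each: *Slc2a1* among the endothelium markers, *Prox1* of dentate granule cells (0.39 ± 0.16) and *Igfbp2* among the meninges markers. Among all genes 1.5% were nominally higher and 1.47% nominally lower.

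The separate group of naive mice gave another view of the same arrays. Ketamine against naive mice gave 6 probes at an adjusted p under 0.05, or 0.0133% of all probes, all higher with ketamine. *Nfkbia* differed by 1.08 (adjusted p = 4.52e-05), *Sgk1* by 1.39 (adjusted p = 0.00118), *Txnip* by 1.24 and 1.00 (adjusted p = 0.00118 and 0.00378), *Gadd45g* by 0.87 (adjusted p = 0.00152) and *Ppp1r3g* by 0.81 (adjusted p = 0.0199). Saline against naive mice gave 0 probes in limma, or 0% of all probes, while 816 had a nominal p under 0.05.

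The part of these differences seen with saline alone varied by gene. Saline mice exceeded naive mice by 0.53 ± 0.22 for *Sgk1*, 0.42 ± 0.14 for *Nfkbia* and 0.28 ± 0.14 for *Gadd45g* (adjusted p = 1.00 for each). For *Ppp1r3g* the figure was 0.03 ± 0.15, and for *Txnip* 0.16 ± 0.19 and -0.04 ± 0.17. Thus *Txnip* read 10.00, 9.78 and 9.94 on the naive arrays, within the spread of saline, while *Sgk1* read 11.89, 12.24 and 11.93, with the highest naive array above the lowest saline array. The median of the glucocorticoid receptor targets was 0.31 for ketamine minus naive and 0.10 for saline minus naive. The 3 comparisons share arrays and are not independent.

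For these genes the differences were larger at 1 h than at any later time. They, like *Hes5* and *Clk1* below, were picked for a small p at 1 h, which alone favors a larger difference at that time. *Txnip* averaged 11.14 ± 0.25, 10.52 ± 0.19, 10.14 ± 0.09 and 10.45 ± 0.27 at 1, 2, 4 and 8 h after ketamine, and 10.07 ± 0.40, 10.26 ± 0.40, 10.05 ± 0.07 and 10.34 ± 0.17 after saline (SD, n = 3 arrays each). The ketamine minus saline differences were thus 1.08 at 1 h and 0.26, 0.09 and 0.11 at 2, 4 and 8 h. *Ppp1r3g* differed by 0.78, then 0.39, -0.07 and -0.08, and *Gadd45g* by 0.60, then 0.31, -0.20 and 0.05. *Nfkbia* differed by 0.66, then 0.32, -0.16 and 0.26, and *Ddit4* by 0.72, then 0.53, -0.05 and 0.36.

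For *Hes5* the difference of -0.80 at 1 h was followed by 0.37, -0.04 and 0.21, and for *Clk1* that of -0.79 by -0.19, 0.20 and 0.05. The saline arrays of *Hes5* at 2 h scattered widely, with a mean of 8.36 ± 0.59 (SD, n = 3 arrays) and values from 7.68 to 8.73. The difference between the 1 h effect and the mean of the later 3 was tested for every probe. It was 0.92 ± 0.22 for *Txnip*, -0.98 for *Hes5* and 0.70 ± 0.18 for *Ppp1r3g*. The test called 0 of 45281 probes, or 0%, with 707 at a nominal p under 0.05, so for no gene did the 1 h effect differ from the later ones at the adjusted threshold of limma.

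**Figure D3:**
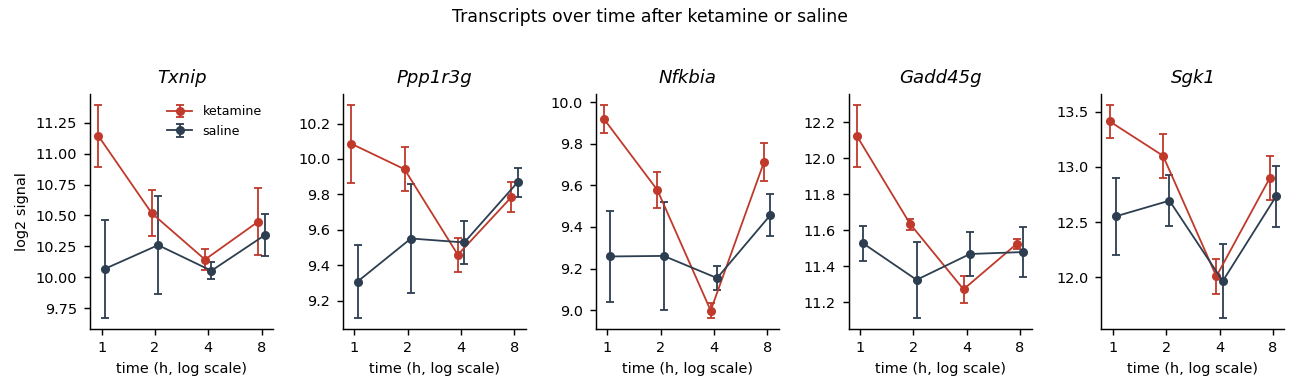
Mean log2 signal of 5 transcripts at 1, 2, 4 and 8 h after ketamine and saline (log time axis, error bars SD of 3 arrays). *Txnip* averages 11.14 at 1 h after ketamine against 10.07 after saline, and its curves are within 0.11 of each other at 4 and 8 h.

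At the same hour the other NMDA receptor blockers were set against the same saline arrays, so their values are not independent of those above. *Txnip* (brighter probe) differed from saline by 1.08 with ketamine, 0.94 with memantine (adjusted p = 0.193) and 0.48 with PCP (adjusted p = 0.996). *Sgk1* differed by 0.86, 0.94 and 0.34, *Nfkbia* by 0.66, 0.57 and 0.38, *Dusp1* by 0.43, 0.98 and 0.50, and *Hes5* by -0.80, -0.68 and -0.47 with ketamine, memantine and PCP. Differences between the drugs were not tested.

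The choroid plexus, the epithelium of the ventricles that secretes cerebrospinal fluid, gave wider differences than any list above, on which the ketamine arrays disagreed with each other. *Ttr*, which encodes the thyroxine carrier transthyretin, read 15.51, 11.99 and 12.10 on the ketamine arrays, against 15.94, 15.77 and 15.51 on the saline arrays. Ketamine replicate 1 thus held the same value as saline replicate 3, and the other 2 ketamine arrays were lower by over 3 log2 units. The mean difference was -2.54 ± 1.07 (adjusted p = 1.00), and an exact permutation test of 3 against 3 arrays gave p = 0.2 (two-sided), where the smallest possible value is 0.1. Low *Ttr* also occurred without ketamine. Naive mice averaged 15.16, 15.73, 11.54 and 15.49 at 1, 2, 4 and 8 h, and saline mice 15.74, 15.56, 15.46 and 15.66. The naive arrays at 4 h ranged from 11.08 to 12.17, and the lowest PCP array at 1 h read 10.99. The cause of these differences was not tested.

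Ketamine replicate 1 also read highest of the ketamine arrays for other markers. *Clic6*, a chloride channel protein, read 11.16, 7.82 and 7.95 with ketamine, against 12.03, 10.70 and 10.70 with saline. *Kcne2*, a potassium channel subunit, read 9.06, 7.03 and 6.94, against 9.86, 9.33 and 9.0, and the water channel *Aqp1* read 9.76, 7.04 and 7.18, against 10.46, 9.0 and 9.72. In each, ketamine replicate 1 lay within the range of the saline arrays and the other 2 ketamine arrays below it. All 18 markers had a lower mean with ketamine, with a median of -1.27. Of these markers 11 were nominally lower, against 1.47% of all genes, and none had groups without overlap. Their mean per array was 9.44, 7.73 and 7.87 with ketamine, against 10.06, 9.34 and 9.16 with saline and 9.25, 8.50 and 8.68 in naive mice (exact permutation p = 0.3 for ketamine against saline, two-sided). Without ketamine replicate 2 or 3 no marker was nominally lower, and with the slide as a fixed block none was.

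*Txnip* was read again beside these markers. With the choroid plexus mean as a covariate the *Txnip* differences were 1.18 and 1.06 (adjusted p = 0.00892 for both). Without ketamine replicate 1, whose choroid plexus mean lay within the range of the saline arrays, they were 1.21 and 1.21 (adjusted p = 0.0188 and 0.00152). Without ketamine replicate 2 or 3, the arrays low in choroid plexus transcripts, neither *Txnip* probe was called. The same held without saline replicate 1 or 2, whose choroid plexus means of 10.06 and 9.34 were not low. The glucocorticoid receptor targets counted 12 of 42 nominally higher with that covariate, and the immediate early genes 4 of 39.

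**Figure D4:**
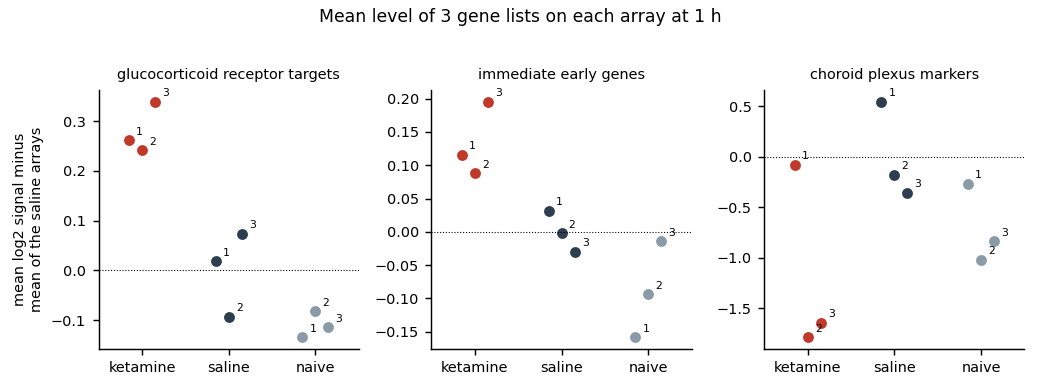
Mean log2 signal of the glucocorticoid receptor targets, the immediate early genes and the choroid plexus markers on each array at 1 h, relative to the mean of the 3 saline arrays (points are arrays, small digits replicate numbers). The ketamine arrays stand at 0.24 to 0.34 for the glucocorticoid receptor targets, while for the choroid plexus markers replicate 1 stands at -0.08 and replicates 2 and 3 at -1.79 and -1.65.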

How the data were processed

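The series holds 60 bead arrays (Illumina MouseWG-6 v2) of hippocampal RNA, 3 for each of 20 combinations of treatment and time, with 2 mice pooled on each. Groups and replicate numbers come from the titles of the samples. The authors deposited BeadStudio intensities on a linear scale, without background subtraction, scaling or detection p-values. The authors also deposited log2 values, described as background subtracted and quantile normalized, which served as an alternative.

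The intensities were corrected by normexp without control probes (offset 50), quantile normalized over the 60 arrays and log2-transformed, with no filter, in R 4.3.3 with limma 3.58.1. A means model over the 20 groups (40 residual degrees of freedom, no block) was fitted, as in the study's analysis of variance without a block, and variances were moderated. The adjusted p is that of Benjamini and Hochberg, taken over the 45281 probes. A nominal p is the same p before adjustment. Errors are standard errors of this fit unless marked SD. The number of arrays limits the precision.

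Gene symbols came from the platform annotation, and a check through RefSeq gene IDs changed 0 of them. Of the probes 34885 had 1 symbol (19057 genes), 18 several and 10378 none given here. Lists were read with 1 probe per gene, the one with the highest mean over 60 arrays. Members, lists and rules were chosen with earlier results of these data known. Named genes are the called probes, the 15 higher and 10 lower named probes of smallest p above the median signal with a difference over 0.3, up to 4 members of each list, the genes the study names for the hippocampus, the NMDA receptor subunits, *Bdnf*, *Ntrk2*, *Eef2k*, *Mtor* and the choroid plexus markers.

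Deviations from the group means of same-numbered ketamine and saline arrays correlated at -0.01, -0.07 and -0.06 across probes, so the numbers did not pair the arrays. The alternatives were no background correction, an offset of 16, the deposited log2 values, the 6 arrays normalized alone, the brighter 50% of the probes, the 6 or 24 arrays alone in the fit, the slide as a fixed or random block, the replicate number as a block, trended robust variances, naive mice as the control, the choroid plexus mean as a covariate, no arrays of high background, and leaving out each array. Arrays of the striatum, and *Mat2a*, which the study also names, were not analysed here.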

Additional observations from a re-analysis of the deposited data

How the results depend on the processing

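The count of 2 probes past the adjusted test became 3 with no background correction, with the authors' values, with the brighter 50% of the probes, with trended variances and without the arrays of high background. It became 1 with an offset of 16 or the slide as a fixed block, 0 with the 6 arrays normalized alone, the 6 arrays alone in the fit or the 24 arrays, 6 with naive mice as the control, and 0 to 3 when 1 array was left out. A *Txnip* probe was among the calls wherever there were any. *Txnip* kept its direction under the 21 alternatives, and 12 and 14 of them called its brighter and dimmer probe. With the replicate block the count was 2 over 60 arrays and 19 over the 6 arrays, 11 of the 19 being probes of choroid plexus markers, all lower, with *Ttr* at -2.54 (adjusted p = 0.0291). The numbers do not pair the arrays.

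At the study's threshold, 8 higher probes became 14 with naive mice as the control, 18 without the arrays of high background and 4 to 14 with 1 array left out. The 1 lower probe became 2 with the authors' values, the choroid plexus covariate or naive mice, 0 with the brighter 50% of the probes, 3 with the 6 arrays in the fit or the slide as a fixed or random block, 4 with the 6 arrays normalized alone, 39 with the replicate block over 6 arrays, 8 without the arrays of high background and 1 to 9 with 1 array left out. No probe differed between 1 h and the later times under any alternative that could be run, and fits of the 6 arrays alone could not give that test. *Ttr* differed by -3.69 to -1.93 with 1 array left out.

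With the slide as a fixed block *Arc* turned to 0.043, *Plin4* to -0.029, *Grb14* to 0.055 and *P4ha1* to 0.20, and *P4ha1* to 0.043 with the slide as a random block. Against naive mice *Arc* turned to 0.22, *Grb14* to 0.024 and *P4ha1* to 0.025, and with the choroid plexus covariate *P4ha1* turned to 0.00041. With 1 array left out *Arc* ranged over -0.39 to 0.11, *Fos* over -0.14 to 0.30, *Grin2b* over -0.027 to 0.18, *Grb14* over -0.18 to 0.033 and *P4ha1* over -0.097 to 0.044. The other named genes kept their sign. The causes of these shifts were not tested. Probes of low signal have little range above background, and small differences in them cannot be read at this number of arrays.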
